A study of Mus musculus with 17 samples.

Results

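The organ by genotype difference between testes and forebrain was measured in newborn osteocalcin mutant mice, as the effect of the mutant genotypes in forebrain minus the effect in testes, gene by gene. All 17 libraries of the series entered, 8 from testes and 9 from forebrain, and the effect in an organ was the mean of the heterozygous and homozygous mutant groups against wild type (WT). Of 55359 genes counted, 17800 had enough counts to be tested. Genes were then described by whether the effect ran in opposite directions in both organs, or was called in 1 organ and differed from the other.

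Osteocalcin is a hormone made by bone-forming osteoblasts, encoded in the mouse by a cluster of neighbouring Bglap genes. In the testis it is known to act on Leydig cells, the cells that make testosterone, through the receptor Gprc6a, and in the brain on neurons through Gpr158. Both are G protein-coupled receptors, a class that acts partly through cyclic AMP, a messenger that quickly induces so-called immediate-early genes such as the NR4A nuclear receptors. An organ by genotype difference asks directly whether a genotype changes a gene unequally in both organs, which a call in 1 organ and none in the other does not show.

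The mice were one-day-old pups of the OcnGK strain, stated by the study to be male, and poly(A) RNA was sequenced from whole testes and from forebrain including the hippocampus, which the sample labels call hippocampus. Testes came from 2 WT, 3 Ocn+/- (Het) and 3 Ocn-/- (KO) pups, and forebrains from 3 pups of each genotype by the labels. The study's clustering of forebrains counts fewer WT libraries than the labels, without naming the one left out. WT pups had WT mothers, whereas both Het and KO pups had Ocn-/- mothers. The genotype of the pup, the genotype of the mother and the litter can therefore not be told apart in any comparison with WT. Whether organs of 1 pup were paired is not stated. The libraries were labelled as separate samples, and p-values measure the spread between them.

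Total counts were 7302401 to 8289015 per testes library and 6518151 to 14621584 per forebrain library. Marker genes matched the labelled organs: the summed level of 12 Leydig cell genes was at least 1200 CPM (counts per library scaled to a common total, with TMM factors) in testes and at most 78.3 CPM in forebrain, and that of 15 neuronal genes was at least 10500 CPM in forebrain and at most 167 CPM in testes. The genotype labels could not be checked at this depth, because Bglap had 0 to 5 counts, Bglap2 had none and Bglap3 had 0 to 17 counts in each library. One library stood apart. Forebrain WT replicate 3 held 11704 counts of Xist, the RNA that coats the inactive X chromosome of females, against 0 to 21 in the other 16 libraries, and no count of the Y-linked genes Ddx3y, Eif2s3y, Kdm5d and Uty, against a sum of 1285 to 2453 in the others. This library goes against the stated sex. It also had the lowest depth, and 8.5% of its counts fell on the ribosomal RNA gene Rn18s-rs5, against 0.0909 to 0.805% elsewhere. Results are therefore given with and without it. None of the 18 Y-linked genes tested was called in the difference, and neither was Xist. With that library in its group such genes spread widely, so the lack of a call does not show that other results are free of its influence.

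The difference between organs was called in 526 genes, 2.96% of those tested, at an adjusted p under 0.05. The effect was higher in forebrain than in testes for 305 of them (1.71%) and lower for 221 (1.24%). In testes alone 1147 genes were higher in the mutant groups (6.44%) and 1418 lower (7.97%), together 14.4%. In forebrain alone 250 were higher (1.4%) and 518 lower (2.91%), together 4.31%. Both organs called 157 genes lower, which were 11.1% of the lower genes of testes and 30.3% of those of forebrain, and 61 genes higher, 5.32% and 24.4%. Both organs called, without forebrain WT replicate 3, 51 genes lower (3.89% and 42.5%) and 8 higher (0.621% and 33.3%). Across all genes the effects in both organs had a Pearson r of 0.12 and a Spearman rho of 0.23, a description over genes that share libraries and are not independent. The median effect was -0.01 (log2) in testes and 0.01 in forebrain, both after TMM scaling, which itself brings most genes near 0.

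The 526 genes fell into unequal kinds. An effect was called in testes and not in forebrain for 381 genes expressed in both organs at a mean of 1 CPM or more, of which 235 were lower and 146 higher in the mutant groups. The reverse, an effect called in forebrain and not in testes, was found in 58 genes, 39 lower and 19 higher. The effects were called in both organs with opposite signs for 20 genes, and with the same sign but unequal size for 10. A further 23 genes called in testes and 2 called in forebrain measured under 1 CPM in the other organ, and for 32 only the difference itself was called. Not being called does not show that an effect is absent. The 95% interval of the other organ's effect lay within a 1.5-fold change for 306 of the 381 testes-restricted genes and for 37 of the 58 forebrain-restricted genes.

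Without forebrain WT replicate 3 the difference was called in 274 genes (1.54%), with 5 opposite, 222 testes-restricted and 12 forebrain-restricted genes. The forebrain effect was then called in 144 genes (0.811%). Leaving out forebrain WT replicate 1 or 2 in its place gave 276 and 283 genes, with 9 and 6 opposite, and leaving out testes WT replicate 1 or 2 gave 129 and 93. Of the genes called without replicate 3, 255 were also called with all libraries. Among the 78 genes named below or in the closing section whose difference was called, 45 calls were lost without testes WT replicate 2, 42 without testes WT replicate 1, 26 without forebrain WT replicate 3 and 23 each without forebrain WT replicates 1 and 2, and no difference changed sign.

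**Figure D1:**
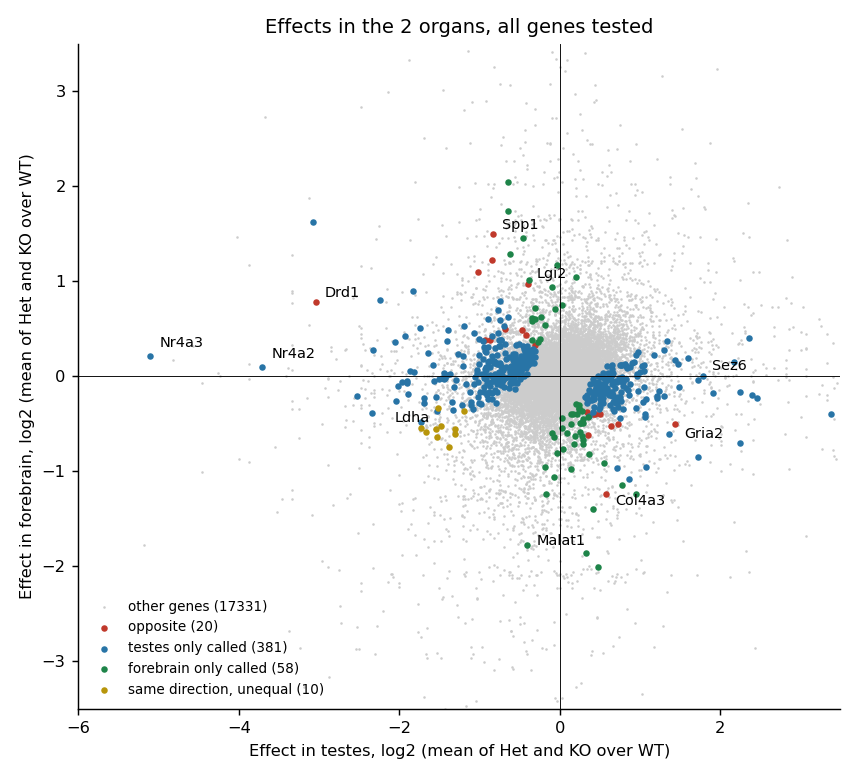
Effect of the mutant genotypes in testes (horizontal axis) and in forebrain (vertical axis), both as log2 of the mean of Het and KO over WT, with 1 point per gene tested. The 381 testes-restricted genes spread along the horizontal axis with Nr4a3 at -5.1 farthest to the left, the 58 forebrain-restricted genes along the vertical axis, and the 20 opposite genes lie in the upper left and lower right. 126 genes, none of them in a coloured class, lie outside the axes.

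Spp1, which encodes the secreted matrix protein osteopontin (chr5:104582165-104589235, plus strand, GRCm39), had the smallest p among the opposite genes. In testes it measured 101 and 87 CPM in the WT libraries, 51.7, 44 and 50.7 CPM in Het and 47.7, 60.6 and 62.4 CPM in KO. In forebrain it measured 10.1, 11.2 and 12.3 CPM in WT, 27.8, 37.7 and 32.1 CPM in Het and 26.3, 32.5 and 30.3 CPM in KO. Every mutant library was thus below WT in testes and above WT in forebrain, and the 2 mutant genotypes overlapped. Of all genes tested, 24.7% had no overlap of WT and mutant libraries in testes and 14.4% in forebrain. The opposite genes were chosen by their calls in both organs. The effect was -0.83 (log2, SE 0.124, adjusted p = 0.000122) in testes and 1.49 (SE 0.139, adjusted p = 7.51e-07) in forebrain, a difference of 2.33 (adjusted p = 5.46e-08), and 2.38 without forebrain WT replicate 3. Spp1 was the only named opposite gene that stayed opposite when each of the 17 libraries was left out. In the annotation 12.7% of its exon bases are shared with the gene model Gm42793 on the same strand. Macrophages and microglia also make osteopontin. The summed level of 20 of their marker genes was 304 and 326 CPM in WT and 180 to 345 CPM in mutant testes, and 220 to 226 CPM in WT and 198 to 259 CPM in mutant forebrain, so that WT and mutant libraries overlapped in both organs. Of the 20 genes, 3 rose (15%) and 2 fell (10%) in testes, against 6.44% and 7.97% of all genes tested. In forebrain 2 rose, against 1.4% of all genes, and none without WT replicate 3, and none of the 20 was called in the difference. Their part in the result was not tested.

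Lgi2 encodes a secreted protein of the leucine-rich glioma-inactivated family (chr5:52690631-52723804, minus strand). It measured 81 and 95.5 CPM in WT testes and 63.5 to 72 CPM in the 6 mutant testes, against 39.1 to 44.1 CPM in WT forebrain and 71.3 to 89.3 CPM in mutant forebrain. Neither organ showed an overlap between WT and mutant libraries (over all genes tested, 24.7% had none in testes and 14.4% in forebrain). The effects were -0.4 (adjusted p = 0.0138) and 0.98 (adjusted p = 2.51e-06), a difference of 1.37 (SE 0.142), and the opposite call was lost only without testes WT replicate 2. Nampt, the rate-limiting enzyme of NAD salvage, fell from 89.3 and 99.3 CPM in WT testes to 40.6 to 70.1 CPM in the mutant testes, and measured 53.4 to 61.5 CPM in WT and 68.6 to 85.3 CPM in mutant forebrain. Its difference of 1.26 (adjusted p = 8.08e-05) was called without each library in turn. Its forebrain effect of 0.39 (adjusted p = 0.0421) was not called without forebrain WT replicate 3 (0.41, adjusted p = 0.14). Nampt also lost the opposite call without testes Het replicate 3. The same held for forebrain WT replicates 1 and 2, KO replicates 1 and 2 and Het replicate 1, each left out alone.

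The other genes lower in testes and higher in forebrain included membrane and signalling proteins. Ptk2b, a calcium-responsive tyrosine kinase, measured 20.9 and 22.1 CPM in WT and 12.1 to 20.1 CPM in mutant testes, and 38.3 to 51.9 CPM in WT and 55.9 to 75.4 CPM in mutant forebrain, a difference of 0.96. Differences of 0.64 to 2.12 were measured for Slc7a1 (a cationic amino acid transporter), Atp1b1 (a sodium pump subunit), Ttc9, Frzb (a secreted Wnt antagonist) and Layn (a hyaluronan receptor). For these 5 genes and Ptk2b the forebrain effect had an adjusted p of 0.0209 to 0.0415 with all libraries and of 0.166 to 0.228 without forebrain WT replicate 3. Their differences stayed called without it, with adjusted p of 0.0242 to 0.038. Each of the 6 lost the difference without a WT testes library, Ptk2b without replicate 2, Slc7a1, Ttc9 and Frzb without replicate 1, and Atp1b1 and Layn without either. Drd1, the D1 dopamine receptor of striatal neurons, was also opposite, but its level in testes was 0 to 0.241 CPM in the mutant and 0.345 and 1.35 CPM in the WT libraries, a few counts each. In forebrain Drd1 measured 17.4, 14.2 and 11.5 CPM in WT and 19.4 to 33.5 CPM in the mutants. The summed level of 8 striatal genes, Drd1 among them, was 153 to 177 CPM in WT, 172 to 237 CPM in Het and 217 to 252 CPM in KO forebrain, where Het overlapped with WT, and 2 of the 8 were called higher in forebrain, against 1.4% of all genes tested, and none without forebrain WT replicate 3. Its part in the result was not tested. In bulk tissue a change in the number of cells of a type cannot be told apart from a change of RNA per cell.

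The other 9 opposite genes ran the other way, higher in mutant testes and lower in mutant forebrain. Gria2, an AMPA-type glutamate receptor subunit (chr3:80588757-80710538, minus strand), measured 556, 509 and 554 CPM in WT forebrain, 383, 344 and 335 CPM in Het and 472, 429 and 333 CPM in KO. In testes it was low, at 1.49 and 2.92 CPM in WT and 4.33 to 7.8 CPM in the mutants. The libraries did not overlap in either organ (over all genes tested, 24.7% had no overlap in testes and 14.4% in forebrain). The effects were 1.44 (adjusted p = 0.00122) and -0.5 (adjusted p = 0.0136), a difference of -1.94 (SE 0.289). Without forebrain WT replicate 3 the difference was -1.93 and the forebrain effect was not called (adjusted p = 0.0813). The opposite call was also lost without forebrain WT replicate 1.

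Sntb2, the dystrophin-associated beta-2-syntrophin (chr8:107662119-107751577, plus strand), measured 118 and 107 CPM in WT testes and 123 to 171 CPM in mutant testes. In forebrain it measured 19.6 to 24.6 CPM in WT and 13.2 to 16.2 CPM in the mutants. WT and mutant libraries were apart in both organs (over all genes tested, 24.7% were so in testes and 14.4% in forebrain). Its effects of 0.36 and -0.62 differed by -0.98 (adjusted p = 0.00115), and it stayed opposite without forebrain WT replicate 3, but not without testes WT replicate 1, WT replicate 2 or KO replicate 3. Arhgef1, a guanine nucleotide exchange factor, measured 44.2 and 47.2 CPM in WT testes and 45 to 84.7 CPM in the mutants, where KO replicate 2 overlapped with WT, and 52.6 to 73.8 CPM in WT against 38.2 to 50.4 CPM in mutant forebrain. It also stayed opposite without that library, at -1.27 (adjusted p = 0.00168), and lost the opposite call without testes WT replicates 1 and 2, forebrain WT replicates 1 and 2, KO replicate 2 and Het replicate 2, each left out alone. Trank1 measured 179 and 128 CPM in WT and 205 to 311 CPM in mutant testes, against 146 to 165 CPM in WT and 97.1 to 128 CPM in mutant forebrain, a difference of -1.24 (adjusted p = 0.00115). Its forebrain effect of -0.5 was not called without forebrain WT replicate 3 (adjusted p = 0.12). Trank1 also lost the opposite call without forebrain WT replicates 1 and 2, KO replicate 1 and Het replicate 2, each left out alone.

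The remaining 5 were Lbr (the lamin B receptor), Crebzf, Col4a3 (a basement membrane collagen), Carhsp1 and Dennd6b, with differences of -0.72 to -1.82. Each was called in the difference without forebrain WT replicate 3, at adjusted p of 0.0235 to 0.0312, but none of them in the forebrain effect, at adjusted p of 0.106 to 0.319. The difference was lost without testes WT replicate 1 for Lbr and Dennd6b, without either WT testes library for Crebzf and Carhsp1, and without testes WT replicate 2 or forebrain WT replicate 2 for Col4a3. All 20 opposite genes were protein-coding, as were 86.2% of all genes tested, and none was on chromosome X, which held 686 of the 17800. Their median level was 55.5 CPM in testes and 48.4 CPM in forebrain, against 17 and 17.5 CPM over all genes tested.

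**Figure D2:**
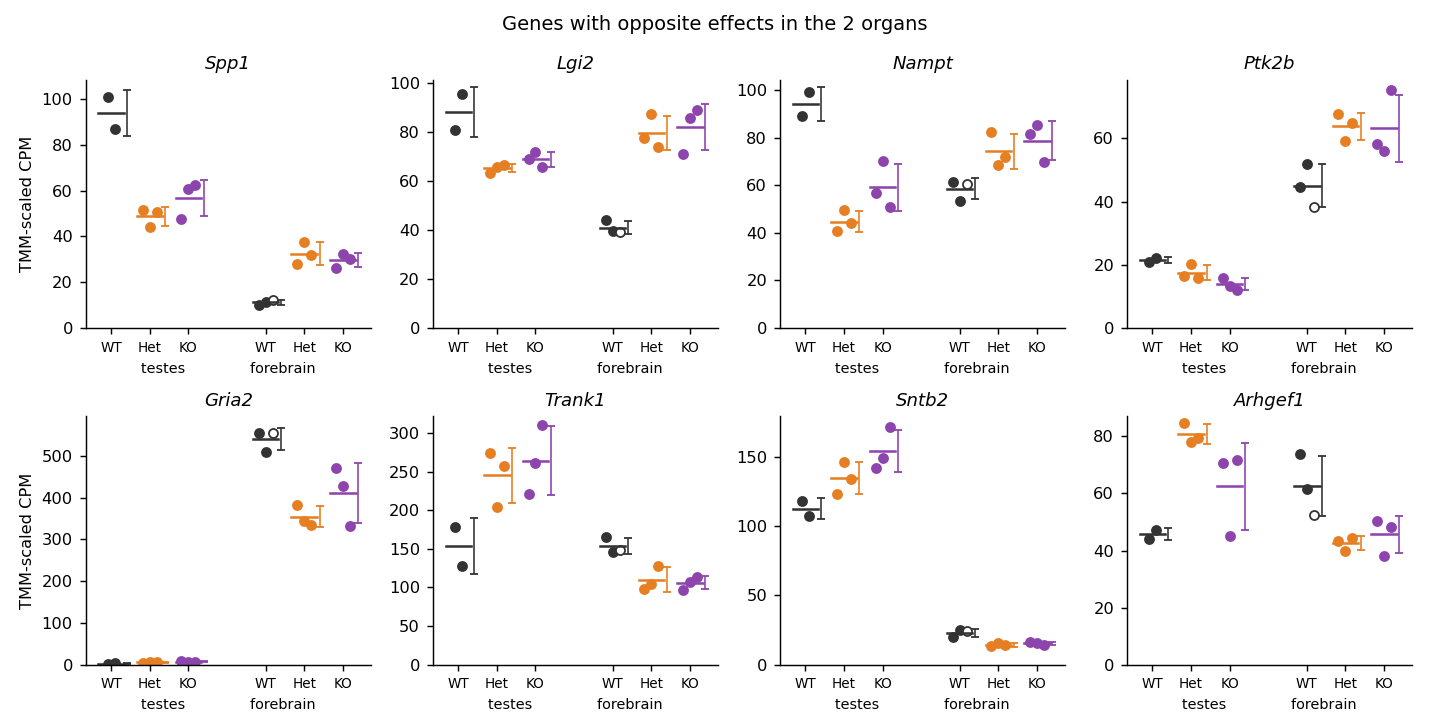
TMM-scaled CPM of 8 opposite genes in each library, by organ and genotype, with 1 point per library, a line at the group mean and a bar for the SD (2 WT testes libraries, 3 in every other group). The open point is forebrain WT replicate 3. In the upper row mutants are below WT in testes and above WT in forebrain, as in Spp1 (101 and 87 CPM against 44 to 62.4 CPM, then 10.1 to 12.3 CPM against 26.3 to 37.7 CPM), and in the lower row the reverse.

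The NR4A family was testes-restricted, and among the named restricted genes Nr4a3 and Nr4a2 had the largest differences. Nr4a1, Nr4a2 and Nr4a3 are orphan nuclear receptors whose genes are induced within minutes by cyclic AMP and other signals. Nr4a3 (chr4:48045153-48086447, plus strand) measured 40 and 20 CPM in WT testes, 0.234, 0.225 and 0.844 CPM in Het and 3.37, 1.01 and 0.681 CPM in KO. In forebrain it measured 73.9 to 83.3 CPM in WT and 75 to 112 CPM in the mutants, where the groups overlapped. The effect was -5.1 (SE 0.38, adjusted p = 1.64e-06) in testes and 0.21 (adjusted p = 0.645) in forebrain, a difference of 5.31 (adjusted p = 3.27e-05). Nr4a3 and Nr4a1 were named as members of the immediate-early list, since their forebrain intervals were too wide for the rule on restricted genes.

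Nr4a2 (chr2:56996842-57014331, minus strand) measured 59.9 and 35.8 CPM in WT testes and 2.77 to 5.06 CPM in all 6 mutant testes. In forebrain WT measured 84, 87.6 and 84.3 CPM and the mutants 83.5 to 105 CPM. The difference was 3.81 (SE 0.212, adjusted p = 5.41e-11), and 3.79 without forebrain WT replicate 3. Nr4a1 (chr15:101151980-101172681, plus strand) fell from 198 and 201 CPM to 31.6 to 74.4 CPM in testes, and in forebrain measured 16.7 to 19.6 CPM in WT and 10.3 to 23.1 CPM in the mutants. Its difference was 1.7 (adjusted p = 0.0099). The calls of all 3 genes held without each of the 17 libraries in turn.

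The 250 bases before the annotated start of the 3 NR4A genes are shown because the genes moved together in testes, with capitals for each TGACG, the core shared by many cyclic AMP response elements, on either strand (RefSeq sequences). Each holds 4 of them.
Nr4a1 (GRCm38.p6, chr15:101266596-101266845, plus strand): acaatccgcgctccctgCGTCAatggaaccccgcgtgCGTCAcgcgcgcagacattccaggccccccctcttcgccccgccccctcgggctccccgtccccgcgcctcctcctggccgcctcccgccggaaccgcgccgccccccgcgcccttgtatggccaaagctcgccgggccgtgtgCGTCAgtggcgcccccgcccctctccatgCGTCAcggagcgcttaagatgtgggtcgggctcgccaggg
Nr4a2 (GRCm38.p6, chr2:57124004-57124253, minus strand): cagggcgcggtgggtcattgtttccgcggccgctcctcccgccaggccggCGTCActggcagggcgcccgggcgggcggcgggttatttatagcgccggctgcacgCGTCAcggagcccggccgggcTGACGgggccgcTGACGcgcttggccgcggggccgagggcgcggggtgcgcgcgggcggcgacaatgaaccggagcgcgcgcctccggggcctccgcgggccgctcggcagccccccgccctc
Nr4a3 (GRCm38.p6, chr4:48045055-48045304, plus strand): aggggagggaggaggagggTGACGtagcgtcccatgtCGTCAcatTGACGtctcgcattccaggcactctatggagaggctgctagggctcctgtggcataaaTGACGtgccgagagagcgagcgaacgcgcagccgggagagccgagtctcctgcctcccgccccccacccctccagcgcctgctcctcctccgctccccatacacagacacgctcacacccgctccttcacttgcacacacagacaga
Of 32851 promoters of the same length in the table, 17.8% hold at least 1 TGACG and 0.137% hold 4 or more. The full element TGACGTCA, held by 1.55% of promoters, is in none of the 3, and neither are CACGTG (6.02%), TGANTCA (6.75%), TACGTG (2.72%) or 1 form of the serum response element (0.0609%). All motifs were searched on both strands, and TGACG lies within TGACGTCA. By gene, TGACG was in a promoter of 69 of 182 testes-restricted lower genes with a promoter in the table (37.9%), of 23 of 108 testes-restricted higher genes (21.3%), of 9 of 26 forebrain-restricted lower genes (34.6%), of 3 of 16 forebrain-restricted higher genes (18.8%), of 5 of 16 opposite genes (31.2%) and of 3534 of 12419 genes tested (28.5%). The genes and motifs were chosen after their values were seen, and a match of letters is no binding site.

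Of the other testes-restricted lower genes, 5 were named by the rule for large differences. Nfil3, a transcriptional repressor and clock output factor, measured 47.7 and 45.4 CPM in WT testes and 9.22 to 17.7 CPM in mutant testes, and 25.3 to 27.7 CPM in WT and 23.5 to 32.8 CPM in mutant forebrain. Fosl2, an AP-1 subunit, fell in testes by 1.56 (log2) and Pde4d, a phosphodiesterase that breaks down cyclic AMP, by 1.69, with forebrain effects of -0.05 and -0.22. Thbs1, the matrix protein thrombospondin-1, measured 90.9 and 128 CPM in WT and 17 to 34.4 CPM in mutant testes, against 31.6 to 38.5 CPM in WT and 30.2 to 47.5 CPM in mutant forebrain. Cbarp, a regulator of calcium channels, fell by 1.2 in testes and had 0.21 in forebrain. WT and mutant testes did not overlap for any of these 5 genes, which were chosen for large differences, as was so for 24.7% of all genes tested. Each kept its class without each library in turn. Of 15 neuronal genes, 1 rose and 1 fell in testes (6.67% each), near the shares of all genes tested (6.44% and 7.97%). The gene that fell, Syt1, the calcium sensor of synaptic vesicles, measured 14.7 and 16.4 CPM in WT and 6.51 to 11.4 CPM in mutant testes, a difference of 1.06 (adjusted p = 0.00111).

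Some marker lists differed in level between WT and mutant testes and others overlapped. The summed level of the Leydig cell genes was 2290 and 2390 CPM in WT testes and 1200 to 1900 CPM in the mutants, with 5 of the 11 tested lower, and that of 16 endothelial genes was 826 and 849 CPM in WT and 518 to 634 CPM in the mutants, with 6 lower and 1 higher. Neutrophil genes summed to 89 and 105 CPM in WT and 38.4 to 68.7 CPM in the mutants, with 4 of the 10 tested lower, and adipocyte genes to 125 and 145 CPM and 80 to 96.9 CPM, with 2 of 6 lower. The summed levels of 3 lists named for brain cells did not overlap in testes either. Genes of radial glia and astrocytes summed to 1180 and 1200 CPM in WT and 816 to 1040 CPM in the mutants (3 of 13 lower), those of the oligodendrocyte lineage to 1080 and 1110 CPM and 771 to 939 CPM (1 of 11), and those of choroid plexus to 207 and 217 CPM and 134 to 160 CPM (2 of 10). Of all genes tested 7.97% were lower and 6.44% higher in testes. The summed level of the 13 Sertoli cell genes overlapped, with 2900 and 3240 CPM in WT and 2790 to 4210 CPM in the mutants. The summed level of erythroid genes was 2320 and 6090 CPM in WT and 776 to 3480 CPM in the mutants, with 1 of 10 lower, and that of germ cell genes was 413 and 470 CPM and 375 to 429 CPM, with 2 of 12 lower, and both overlapped. Measures tied to RNA preparation also separated the genotypes in testes. Mitochondrial ribosomal RNA took 0.162 and 0.225% of the counts in WT testes and 0.059 to 0.0873% in the 6 mutant testes, against 0.121 to 0.19% in the forebrains other than WT replicate 3, which had 1.6%. Its larger gene, mt-Rnr2, named after its values were seen, measured 939 and 1430 CPM in WT and 301 to 408 CPM in mutant testes. Without that forebrain library the differences of mt-Rnr2 and mt-Rnr1 were called (1.53 and 1.62, adjusted p = 0.000468 and 0.00168), and with all libraries they were not (adjusted p = 0.795 and 0.704). Replication-dependent histone genes, whose mRNAs lack a poly(A) tail, summed to 73.9 and 95.4 CPM in WT and 44.8 to 58.8 CPM in mutant testes, and to 153 to 244 CPM in WT and 101 to 115 CPM in mutant forebrain. Of 13 tested, 2 fell in each organ and none was called in the difference. In forebrain 4 of the 16 endothelial genes fell (25%) and 1 rose. Of 14 collagen genes 4 fell there (28.6%), against 2.91% of all genes lower and 1.4% higher. Without forebrain WT replicate 3, 1 of each list fell and none rose. Choroid plexus genes summed to 664 to 856 CPM in WT, 666 to 998 CPM in Het and 376 to 623 CPM in KO forebrain, with none called. The part of these cell type markers and RNA measures in the testes-restricted, forebrain-restricted and opposite genes was not tested.

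Among the genes higher in mutant testes, Sez6, a membrane protein of neurons, measured 2.99 and 2.36 CPM in WT and 5.85 to 11.6 CPM in mutant testes, and 385 to 399 CPM in WT against 345 to 424 CPM in mutant forebrain, a difference of -1.78 (adjusted p = 0.00178). The metallothioneins Mt1 and Mt2, which bind zinc and are induced by glucocorticoids, had testes effects of 1.24 and 1.22 and forebrain effects of -0.15 and -0.22. Mt2 measured 5.17 and 9.89 CPM in WT testes and 12.4 to 25.6 CPM in the mutants, while the libraries of Mt1 overlapped. In the annotation 82.4% of the exon bases of Mt2 lie opposite the gene model Gm45774, and 82.7% of those of Prrt2, a presynaptic protein, are shared with the gene model Gm42742, so their reads are not certain. Prrt2 rose by 1.6, Gfod2 by 1.44 and Kif21b, a kinesin motor, by 1.05 in testes, with forebrain effects of -0.11 to 0.19. Without forebrain WT replicate 3, Prrt2, Mt1 and Kif21b lost the call of the difference (adjusted p = 0.0641, 0.063 and 0.0565).

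Among the forebrain-restricted genes, Slc16a1, the lactate and ketone transporter MCT1 (chr3:104545811-104565780, plus strand), measured 37.7, 29.8 and 29.7 CPM in WT forebrain and 50 to 58.6 CPM in the mutants. In testes it measured 45 and 52 CPM in WT and 45.4 to 54.4 CPM in the mutants. The forebrain effect of 0.75 (SE 0.107, adjusted p = 0.000195) differed from the testes effect of 0.03 by 0.71 (adjusted p = 0.0148), and by 0.65 without forebrain WT replicate 3 (adjusted p = 0.0522). Slc38a5, a glutamine transporter, rose from 9.9, 10.4 and 12.3 CPM to 18.7 to 28.3 CPM in forebrain, and measured 52.6 and 57.2 CPM in WT and 51.3 to 85.3 CPM in mutant testes. It stayed called without that library, at 0.91 (adjusted p = 0.0338), but not without forebrain WT replicate 1 or 2. Asns, which makes asparagine, Mthfd1l, a mitochondrial folate enzyme, and Pcbp3, an RNA-binding protein, rose in forebrain by 0.4 to 0.71. Without forebrain WT replicate 3 they lost the call of the difference (adjusted p = 0.0724 to 0.111). Snx25, a sorting nexin, kept it, at 0.79.

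Among the genes lower in forebrain, Pdlim7, a cytoskeletal PDZ and LIM domain protein (chr13:55643608-55662151, minus strand), measured 41.5, 46.5 and 45.8 CPM in WT and 24.7 to 31.5 CPM in the mutants, against 57.8 and 68.4 CPM in WT and 56.3 to 87.1 CPM in mutant testes. The difference was -1 (SE 0.179, adjusted p = 0.00346), and -0.99 without forebrain WT replicate 3. Tia1, an RNA-binding protein of stress granules, had effects of -0.58 in forebrain and 0.25 in testes, and its difference was called without each library in turn. Hk2, an inducible hexokinase, measured 6.6, 10 and 10.3 CPM in WT and 4.44 to 6.01 CPM in mutant forebrain and had a testes effect of 0.04, but its difference of -0.81 was not called without forebrain WT replicate 3 (adjusted p = 0.0874). Spaca6 and Vasn also lost it (adjusted p = 0.0538 and 0.104), and Aasdh kept it (adjusted p = 0.0447). Malat1, an abundant nuclear RNA named after its values were seen, measured 587, 507 and 971 CPM in WT forebrain, with the highest value in replicate 3, and 171 to 245 CPM in the mutants. In testes it measured 428 CPM in both WT libraries and 267 to 386 CPM in the mutants. Its forebrain effect was -1.78 with all libraries and -1.45 without replicate 3, and the difference was -1.37 and -1.06, called in both fits. The testes effect was called without replicate 3, so that the gene was then no longer restricted to forebrain.

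**Figure D3:**
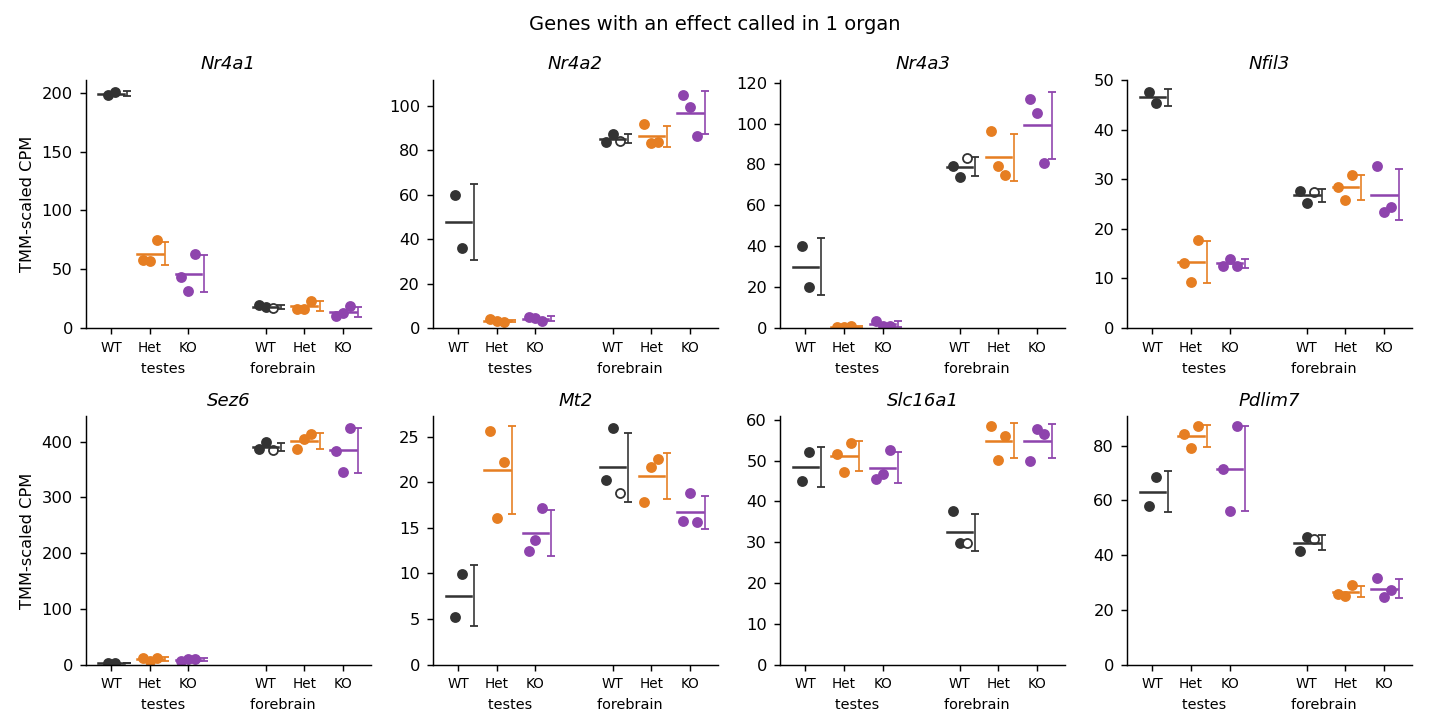
TMM-scaled CPM of 8 organ-restricted genes in each library, drawn as for the opposite genes (1 point per library, line for the mean, bar for the SD, open point for forebrain WT replicate 3). The first 6 panels show genes called in testes, among them Nr4a2 (59.9 and 35.8 CPM in WT testes, 2.77 to 5.06 CPM in mutant testes), and the last 2 show Slc16a1 and Pdlim7, called in forebrain.

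The 10 genes with the same direction but unequal size were all lower in both organs and more so in testes, with a median effect of -1.5 in testes and -0.55 in forebrain. They were Ldha, Tpi1, Eno1 and Eno1b, enzymes of glycolysis, Bnip3, a mitochondrial protein induced by low oxygen, Per1, a repressor of the molecular clock, Klf9, a transcription factor induced by glucocorticoids, and B3gnt5, Rasgef1b and 1 of 2 entries named Ptp4a1. Ldha, lactate dehydrogenase A, measured 403 and 471 CPM in WT testes and 132 to 175 CPM in the mutants, against 292 to 382 CPM in WT and 238 to 281 CPM in mutant forebrain. Its effects of -1.52 and -0.33 differed by 1.19 (adjusted p = 4.35e-05). Per1 measured 125 and 138 CPM in WT and 27.7 to 47.9 CPM in mutant testes, and 50.5 to 58.1 CPM in WT and 29.8 to 44 CPM in mutant forebrain, a difference of 1.18 (adjusted p = 0.00144). Without forebrain WT replicate 3 the forebrain effects of Ldha and Per1 were not called (adjusted p = 0.0742 and 0.136), and both differences were. Klf9 and Eno1b then lost the difference (adjusted p = 0.053 and 0.0522) and Rasgef1b the forebrain effect (adjusted p = 0.141), so that 5 of the 10 genes kept the class. Eno1b and Eno1 are near-identical copies, and the sharing of their reads is uncertain. The Ptp4a1 entry has 108 exon bases, 100% of them shared with the other entry on the same strand, so its reads are not certain either. Eno1, Eno1b, B3gnt5, Rasgef1b and Ptp4a1 were named after their values were seen.

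Gene lists were read against the shares over all genes tested, of which 6.44% rose and 7.97% fell in testes, 1.4% rose and 2.91% fell in forebrain, and 1.71% were called higher and 1.24% lower in the difference. Of 20 glycolysis enzymes, 14 fell in testes (70%) and 7 in forebrain (35%), none rose, and the difference was called in 9, of which 8 had the stronger fall in testes. The median effect was -0.67 in testes and -0.19 in forebrain, against -0.01 and 0.01 over all genes tested. Pgk1, an ATP-making enzyme of glycolysis, measured 282 and 388 CPM in WT and 104 to 125 CPM in mutant testes, and 231 to 294 CPM in WT and 205 to 235 CPM in mutant forebrain. The 1 enzyme with a stronger fall in forebrain was Hk2. Of 26 hypoxia response genes, 18 fell in testes (69.2%) and 12 in forebrain (46.2%), with medians of -0.76 and -0.35, and the difference was called in 4 (15.4%), Bnip3, Egln3, Ak4 and Fam162a, the last not without forebrain WT replicate 3 (adjusted p = 0.103). The forebrain counts without that library were 4 glycolysis enzymes and 8 hypoxia genes.

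Of 35 immediate-early genes tested, 10 fell (28.6%) and 1 rose in testes and 4 fell in forebrain (11.4%), and the difference was called in 5 (14.3%), all testes-restricted. The medians of the list were -0.48 and -0.33. Its summed level was 1620 and 1658 CPM in WT testes, 1678 CPM in Het replicate 3 and 860 to 1009 CPM in the other 5 mutant testes. Without Het replicate 3, 13 of the genes fell in testes, with a median of -0.73, and the difference was called in 5. In forebrain none of them was called without WT replicate 3. Of 20 clock genes, 4 fell in testes (20%) and 1, Per1, in forebrain (5%), and the difference was called in Nfil3 and Per1 only (10%). Bmal1, Clock and Cry1 had differences of 0.1, -0.08 and 0.49, none of them called. Among 17 genes of the ATF4 response to amino acid shortage, the difference was called higher in 3 (17.6%) and lower in 1 (5.88%). Atf4 itself had effects of -0.67 and 0.18, and Chac1, a glutathione-degrading enzyme, measured 1.38 and 2.25 CPM in WT and 0.112 to 0.603 CPM in mutant testes but 3.17 to 4.56 CPM in WT and 5.55 to 7.96 CPM in mutant forebrain. Asns was higher in forebrain, and Slc7a11, a cystine transporter, rose in testes by 0.65, and neither difference was called without forebrain WT replicate 3 (adjusted p = 0.0724 and 0.0663).

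Of 80 cytosolic ribosomal protein genes tested, 32 fell (40%) and 4 rose (5%) in testes and 1 fell in forebrain (1.25%). The share that rose in testes and the share that fell in forebrain were below those of all genes. The difference was called higher in 7 (8.75%), among them Rpl28, Rpl35 and Rps10. Rpl28 measured 373 and 402 CPM in WT and 230 to 313 CPM in mutant testes, against 164 to 179 CPM in WT and 175 to 214 CPM in mutant forebrain. Without forebrain WT replicate 3 the difference was called in 2 of the 80. Ribosomal protein genes have many processed copies, which makes the sharing of reads uncertain. Of 24 cell division genes, 9 rose in testes (37.5%) and none was called in forebrain, with medians of 0.28 and 0.03. Only Mcm7, a subunit of the replicative helicase, was called in the difference (-0.65, 4.17% of the list). Without forebrain WT replicate 3, 10 of the 24 rose in testes and the difference was called in 2 (8.33%). Of 78 nuclear-encoded respiratory chain subunits, 6 rose and 6 fell in testes (7.69% each, near the shares of all genes), 6 rose in forebrain (7.69%) and the difference was called in 4. Neither the forebrain effect nor the difference was called in any of them without forebrain WT replicate 3. Without testes Het replicate 3, 2 rose and 7 fell in testes. Of 12 heat-shock protein genes, 6 fell (50%) and 1 rose (8.33%) in testes, and 1 fell in forebrain (8.33%). Only Hspb1 was called in the difference (-1.68), and not without forebrain WT replicate 3 (adjusted p = 0.0522).

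**Figure D4:**
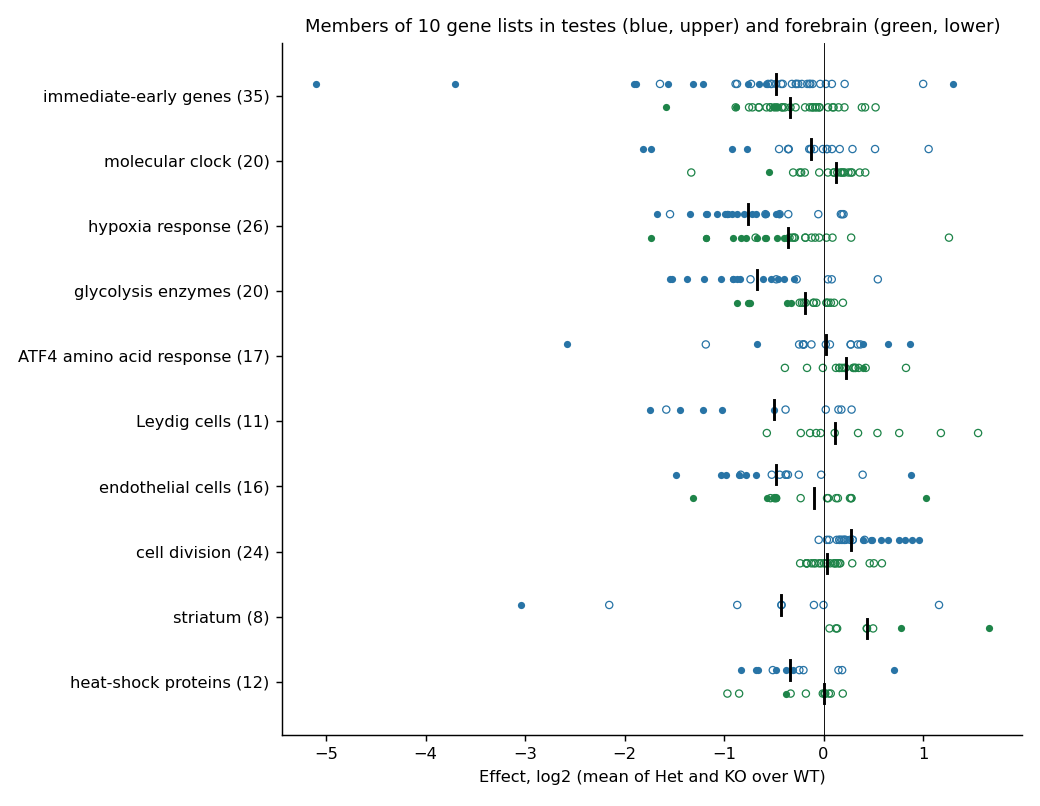
Effects of the members of 10 gene lists in testes (blue, upper row of each list) and forebrain (green, lower row), as log2 of the mean of Het and KO over WT, with filled points for called effects, open points for the others, black bars for medians and the number of genes tested in parentheses. Glycolysis and hypoxia genes lie left of 0 in both organs and farther left in testes, with medians of -0.67 against -0.19 and -0.76 against -0.35.

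Lists of cell types that belong to 1 organ were short, and each held 0 to 2 genes called in the difference, against 1.71% of all genes tested called higher and 1.24% lower. In the Leydig list only Fdx1, the electron donor of steroid-making enzymes, was called (1.41, adjusted p = 0.0412), with 67.2 and 80.5 CPM in WT testes, 18.4 to 47.3 CPM in the mutants and 3.93 to 7.14 CPM in all forebrains. Lhcgr, the luteinizing hormone receptor, fell in testes by 1.22, Cyp11a1, the first enzyme of steroid synthesis, by 1.02 and Star, which carries cholesterol into mitochondria, by 1.74, but their differences of 0.99, 1.78 and 2.09 were not called (adjusted p = 0.149, 0.223 and 0.153). Forebrain levels of Cyp11a1 were 0.198 to 0.948 CPM and limited that comparison. The difference of Fdx1 was 1.53 and not called without forebrain WT replicate 3 (adjusted p = 0.0674). Lhcgr was called without that library (1.52, adjusted p = 0.0241), in which it measured 5.55 CPM, against 1.75 to 3.02 CPM in the other forebrains. In the annotation 58.5% of the exon bases of Star lie opposite Ash2l. Sox9, a transcription factor of Sertoli cells and of glia, measured 43.8 and 45.3 CPM in WT and 73.8 to 111 CPM in mutant testes, and 27.5 to 45.2 CPM in WT and 30.5 to 38.9 CPM in mutant forebrain, a difference of -0.95. Of 13 genes of radial glia and astrocytes, 3 fell in testes (23.1%, against 7.97% of all genes), with a median of -0.07. The difference was called in 2 of them, Aldh1l1 and Slc1a3, which fell in testes by 0.8 and 0.54 and had -0.01 and 0.18 in forebrain. Neither was called without forebrain WT replicate 3 (adjusted p = 0.0663 and 0.0718). The neuropeptide gene Npy fell in testes, where it had at most 2.25 CPM, with 0.27 in forebrain.

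Single members of other lists were also called in the difference. Tek, an endothelial receptor, Rgs5, of pericytes, and Lpl, the lipoprotein lipase, fell in testes by 0.78 to 1.05 and had forebrain effects of -0.01 to 0.14. When forebrain WT replicate 3 was left out, the difference stayed called in Rgs5 (adjusted p = 0.0349), and not in Tek and Lpl (0.0522 and 0.0602). Rgs5 lost the call without forebrain WT replicate 1 or 2. Of 16 genes induced by glucocorticoids, 4 were called in the difference, 2 in each direction (12.5%, against 1.71% higher and 1.24% lower of all genes tested): Mt1 and Mt2, which rose in testes, and Klf9 and the kinase Sgk1, which fell there, the latter by 1.22 with -0.3 in forebrain. With forebrain WT replicate 3 left out, the call held in 1 of the 16, Mt2, and was lost in Mt1, Klf9 and Sgk1 (adjusted p = 0.063, 0.053 and 0.0861). Stat2, of the interferon response, and Enpp6, of the oligodendrocyte lineage, were called in the difference only (-0.68 and 2.64), the latter at 0 to 1.05 CPM in forebrain, and neither was called without forebrain WT replicate 3 (adjusted p = 0.0756 and 0.0674).

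Among the osteocalcin receptors only Gpr37 had levels well above 0 in both organs. Gprc6a had 0 to 4 counts in each library and was not tested. Gpr158 measured 15 to 27.3 CPM in forebrain and 0 to 0.337 CPM in testes, with effects of 0.44 and -1.19 and a difference of 1.62 that was not called (adjusted p = 0.362). Gpr37, another receptor tied to osteocalcin in brain, measured 49 and 53.3 CPM in WT and 60.2 to 91.8 CPM in mutant testes, and 7.67 to 14.8 CPM over all forebrains. It rose in testes by 0.52 and had 0.38 in forebrain, a difference of -0.14 (95% interval -0.65 to 0.36). Of the other genes the study names, Adm, Nppc and Pck1 fell in testes, and their differences of 0.39, 1.35 and 1.36 were not called, the last at very low forebrain counts. G6pc1 had 0 to 8 counts in each library and was not tested.

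The organ difference was also tested between KO and Het, whose mothers shared a genotype. It was called in none of the 17800 genes (0%) by edgeR, with 1175 genes at an unadjusted p under 0.05, in 5 genes by DESeq2 and in none by limma voom, with 1213 and 1226 at that unadjusted p. Leaving out 1 library gave 0 to 10 genes, the highest without testes Het replicate 2. A count of 0 does not show that both genotypes act alike. The median SE of the organ difference of the combined effect was 0.251 (log2).

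**Figure D5:**
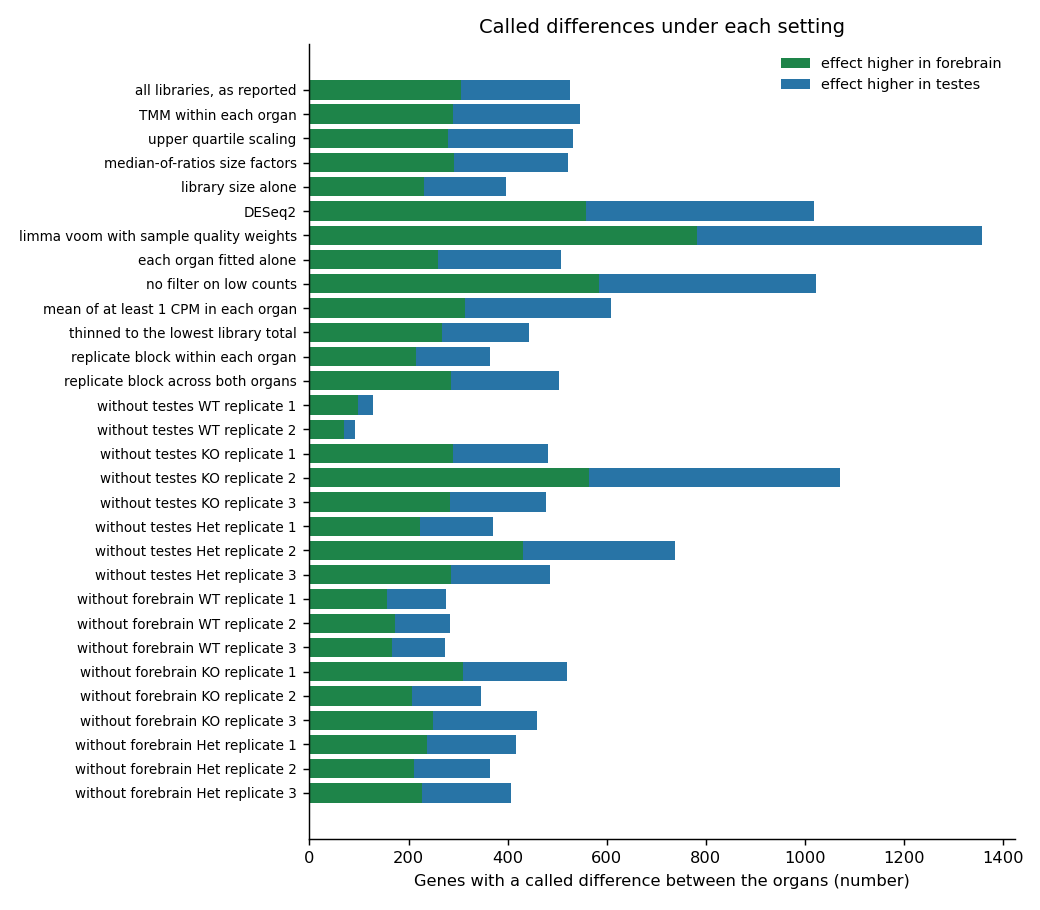
Number of genes with a called difference between organs under each setting, split by direction (green for an effect higher in forebrain, blue for higher in testes). The count is 526 with all libraries and ranges from 93 without testes WT replicate 2 to 1070 without testes KO replicate 2 among the settings that leave out 1 library, and reaches 1356 with limma voom.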

How the data were processed

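Poly(A) RNA from 8 testes and 9 forebrains was sequenced by the authors, who trimmed the reads with Trim Galore 0.6.6, aligned them to GRCm39 with STAR 2.7.8a and counted them with RSEM 1.3.3. The deposited values are expected counts per gene for 55359 genes, without normalization, and 9625 genes hold a value that is not whole, since RSEM splits reads between genes. The annotation release and strandedness are not given in the sources used here, and 54749 identifiers were found in GENCODE. Samples were grouped by their labels. Expected counts were rounded and fitted with edgeR 4.0.16 in R 4.3.3: 1 model of 6 organ by genotype groups without covariates, TMM scaling, filterByExpr and robust two-sided quasi-likelihood tests, with Benjamini-Hochberg adjustment over the 17800 genes tested and calls under 0.05. The common coefficient of biological variation was 0.135. Effects are fitted log2 fold changes of the mean of Het and KO over WT, and the difference is forebrain minus testes. Levels are CPM with TMM scaling.

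An opposite gene was called in the difference and in both organs with opposite signs. A restricted gene was called in the difference and in 1 organ, and its mean reached 1 CPM in both organs. Named genes were the osteocalcin genes and receptors, genes the study names, per direction the 10 opposite genes with the smallest p of the difference, and per organ and direction the 6 restricted genes with the largest difference. The opposite genes needed the same sign in Het and KO in each organ and at least 1 CPM in each, and the restricted genes at least 5 CPM in each organ and an interval of the other organ's effect within 1.5-fold. Up to 4 members called in the difference were added per list, gene models without a name were left out, and 3 genes under the rule are not reported here. Members and lists were chosen with earlier results of these data known. Lists were described by counts and medians without a test. Samples were not paired by replicate number. Tests were checked on simulated counts, where 50% of 2-fold and 93% of 4-fold organ differences were found with all libraries. Alternatives were other scalings and filters, DESeq2 1.42.0, limma 3.58.1, organs fitted alone, thinned counts, replicate blocks and each library left out. Precision was limited by 2 WT testes libraries and a lower depth in testes. Promoters came from RefSeq (GRCm38.p6), gene positions from GRCm39.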

Additional observations from a re-analysis of the deposited data

Results flagged for a closer look

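The named genes below were marked because the effect of the mutant genotypes differed between the organs by the test of the difference itself, and each value is the log2 effect in forebrain minus that in testes. The effect was higher in forebrain than in testes for Spp1 (2.33), Lgi2 (1.37), Nampt (1.26), Ptk2b (0.96), Slc7a1 (0.86), Atp1b1 (0.64), Ttc9 (1.31), Frzb (2.12), Layn (2.07) and Nr4a2 (3.81). Higher forebrain effects were also called for Thbs1 (1.93), Nfil3 (1.86), Fosl2 (1.52), Pde4d (1.47), Cbarp (1.41), Snx25 (0.86), Slc38a5 (0.84), Mthfd1l (0.77), Pcbp3 (0.72) and Slc16a1 (0.71). Further positive differences were those of Asns (0.64), Per1 (1.18), Pgk1 (1.33), Ldha (1.19), Tpi1 (0.83), Pkm (0.71), Bnip3 (1.08), Egln3 (1), Ak4 (0.81) and Fam162a (0.68). Among the remaining list members they were those of Nr4a3 (5.31), Nr4a1 (1.7), Klf9 (0.96), Sgk1 (0.91), Lpl (1.04), Tek (0.92), Rgs5 (0.88), Rpl28 (0.69), Rpl35 (0.65) and Rps10 (0.5). The next were Ndufs4 (0.5), Ndufv3 (0.68), Ndufa5 (0.59), Chac1 (3.41), Atf4 (0.85), Fdx1 (1.41), Syt1 (1.06), Npy (2.95), Aldh1l1 (0.8) and Slc1a3 (0.72). The last were Enpp6 (2.64) and Drd1 (3.82). The effect was lower in forebrain than in testes for Gria2 (-1.94), Trank1 (-1.24), Sntb2 (-0.98), Arhgef1 (-1.15), Lbr (-0.81), Crebzf (-0.84), Col4a3 (-1.82), Carhsp1 (-0.72) and Dennd6b (-0.9). Negative differences were also called for Sez6 (-1.78), Mt2 (-1.44), Prrt2 (-1.4), Mt1 (-1.4), Gfod2 (-1.27), Kif21b (-1.16), Pdlim7 (-1), Aasdh (-0.98) and Spaca6 (-0.89). The last negative ones were Tia1 (-0.83), Vasn (-0.83), Hk2 (-0.81), Stat2 (-0.68), Mcm7 (-0.65), Slc7a11 (-0.82), Hspb1 (-1.68) and Sox9 (-0.95). Of these 78 genes, 24 were called without each of the 17 libraries in turn. No group held the 4 samples that a check for a single outlying sample needs.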

How the results depend on the processing

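With all libraries the difference was called in 526 genes, 20 opposite, 381 testes-restricted and 58 forebrain-restricted. DESeq2 gave 1019, 40, 681 and 138, limma voom with quality weights 1356, 68, 922 and 158, and no filter on low counts 1023, 45, 653 and 129. The organ difference between KO and Het was called in 5 genes by DESeq2 and 28 without the filter. Organs fitted alone gave 100 forebrain-restricted genes. They shared 8 of the 20 opposite genes, and library size alone shared 7. Leaving out 1 library gave 93 to 1070 genes, 4 to 40 opposite, 57 to 791 testes-restricted and 12 to 94 forebrain-restricted, with the lowest counts without testes WT replicate 2 (forebrain WT replicate 3 and testes WT replicate 1 for the last) and the highest without testes KO replicate 2, and 0 to 10 between KO and Het (10 without testes Het replicate 2). The cause was not tested. Without testes WT replicates 1 and 2, 76% and 75.3% of the called differences were higher in forebrain, against 58% with all. The replicate block within each organ gave 365 genes, 20 opposite (12 of them shared with those of all libraries without the block), 250 testes-restricted and 48 forebrain-restricted, and across both organs 504. Same-numbered libraries of an organ had correlations of -0.0677 to 0.119, over 0.1 in 1 of 16 pairs. Across the organs they were -0.0709 to 0.0997 in 24 same-numbered pairs and -0.112 to 0.0722 in 48 other pairs. In same-numbered pairs of 1 genotype across the organs they were 0.0101 to 0.0997. The samples were fitted without pairs, and whether both organs came from the same pups was not tested. Other scalings gave 397 (library size alone) to 545 genes. In library size alone the median of all genes moved to 0.07 in testes and 0.09 in forebrain. Of 2258 recomputed differences of the 78 called named genes, 1963 stayed called and 295 were no longer called, none with another sign. Among genes not called, Bglap3 changed from -1 to 1.15 with thinned counts and ranged from -2.45 to 1.04 (without forebrain WT replicate 1) with 1 library left out, and Bmal1 changed from 0.1 to -0.02 without forebrain WT replicate 3 within a range up to 0.33. Depth limited genes under about 1 CPM, which stood on a few counts.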
